A study of Mus musculus with 4 samples.

Results

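The transcripts described here are 10 protein-coding mRNAs transcribed from the mitochondrial chromosome of the mouse, chosen by name from the 39056 gene rows of a single count table. All 10 were found by their Ensembl gene identifiers. They are 5 core subunits of respiratory complex I (mt-Nd1, mt-Nd2, mt-Nd4, mt-Nd5 and mt-Nd6), 1 of complex III (mt-Cytb), 3 of complex IV, cytochrome c oxidase (mt-Co1, mt-Co2 and mt-Co3), and 1 of ATP synthase (mt-Atp6). Of these, 7 had reads and 3 had 0 reads in every library. The study sequenced polyadenylated RNA from 4 libraries of mouse lung, 1 library per label: no LPS, and 8, 16 and 20 h of lipopolysaccharide (LPS, the endotoxin of Gram-negative bacteria), given at 10 mg/kg into the peritoneum. All 4 are labelled as cells of S1PR1-GFP reporter mice, which mark cells that express the sphingosine-1-phosphate receptor S1PR1, sorted as positive for the reporter and CD31 and negative for CD45. Strain, age and the number of animals per library were not given in the sources used here. With 1 library per label there is no replicate check of any difference below.

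Mitochondrial DNA is a small circular chromosome, present in many copies per cell. It encodes a handful of core subunits of the respiratory chain and ATP synthase, the rRNAs of the mitochondrial ribosome, and tRNAs. A dedicated RNA polymerase copies each strand into long precursors, and the tRNAs that lie between the mRNAs are cut out to release them. Short poly(A) tails are then added to the mRNAs, and in several of them the tail supplies the missing letters of the stop codon. The share of reads from these genes is widely used as a measure of library quality and of mitochondrial content.

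The counts summed to between 27566454 and 28905776 reads per library. A count of 3 reads, taken as the most that 0 observed reads could stand for, came to between 0.104 and 0.108 CPM (counts per 1e+06 reads on totals scaled with edgeR's TMM factors). The defining endothelial markers were close to absent. Pecam1, which encodes CD31, had 7, 2, 2 and 1 reads (no LPS, 8 h, 16 h, 20 h; 4 values are given in this order throughout). The 6 endothelial markers summed to between 15 and 20 reads in a library, with Erg and Emcn at 0 in all 4, and the 2 epithelial markers to between 2 and 4 reads. The 4 mesenchymal markers summed to between 2736 and 3167 CPM, mostly from Vim, while Col1a1, a collagen of fibroblasts, was as scarce as the endothelial markers at 2, 3, 4 and 0 reads. The data therefore go against the labelled cell type, and "8 h" stands below for the library that carries this label. The libraries also paired in an order that the hours do not give. The squared difference between 2 libraries, divided by the variance that counting alone gives, averaged 1.63 over 11803 measured genes (at least 1 CPM in at least 1 library) for 16 h against 8 h and 7.36 for 20 h against no LPS, and between 74.0 and 79.6 for the other 4 pairs, where counting alone gives an average of 1.

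The nuclear genome of the mouse holds copies of mitochondrial DNA, so the sequence that each member shares with such copies is given before its counts. Each mitochondrial protein gene was cut into overlapping windows of 50 bases, and a window was called shared when it occurred, without a mismatch, in another annotated transcript. In mt-Co2, which carries the copper centre that takes electrons from cytochrome c, 635 of 635 windows were shared. In mt-Atp6, which forms part of the proton path of ATP synthase, 629 of 632 were shared, and in mt-Co3, another core subunit of cytochrome oxidase, 734 of 735. These are the 3 members at 0 reads in all 4 libraries.

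Their nearest copies are the unprocessed pseudogenes Gm28661, Gm10925 and Gm28437, which lie beside each other on chromosome 1. Over 681, 678 and 783 aligned bases they differed from mt-Co2, mt-Atp6 and mt-Co3 at 0 bases. The opening 60 bases of each member and of its copy are shown to make this visible (GRCm38, the assembly of mm10, sequences from the GENCODE M21 transcripts, 5′ to 3′; a base that differed would be in capitals, and none did).
mt-Co2, chrM:7013-7072, plus strand: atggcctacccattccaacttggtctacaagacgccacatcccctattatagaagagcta
Gm28661, chr1:24615506-24615565, minus strand: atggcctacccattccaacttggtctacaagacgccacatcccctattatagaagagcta
mt-Atp6, chrM:7927-7986, plus strand: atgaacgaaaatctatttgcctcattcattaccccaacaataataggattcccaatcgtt
Gm10925, chr1:24614592-24614651, minus strand: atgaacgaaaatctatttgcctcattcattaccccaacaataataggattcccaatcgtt
mt-Co3, chrM:8607-8666, plus strand: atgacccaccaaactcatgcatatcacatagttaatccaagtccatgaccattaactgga
Gm28437, chr1:24613912-24613971, minus strand: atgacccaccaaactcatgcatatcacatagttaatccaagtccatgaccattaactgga

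The copies had few reads as well. Gm28661 had 2, 6, 6 and 3 reads (no LPS, 8 h, 16 h, 20 h), Gm10925 had 3, 3, 8 and 4, and Gm28437 had 0, 0, 1 and 0. The 7 annotated copies of this run, from 24611535 to 24616197 on chromosome 1 (4663 bases), summed to between 6 and 21 reads in a library. How the counting treated reads that map to several places was not given in the sources used here. What part shared sequence had in the 3 zeros was not tested, and no level of these mRNAs is drawn from them.

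The other 3 mitochondrial rows also had almost no reads, although their shared parts differed. They are mt-Nd3 and mt-Nd4l of complex I and mt-Atp8 of ATP synthase. In mt-Nd3, 293 of 299 windows were shared, in mt-Nd4l 245 of 248, and both had 0 reads in every library. For mt-Atp8, 0 of 155 windows were found in another annotated transcript, and it had 0, 0, 1 and 1 reads. It lies between mt-Co2 and mt-Atp6, and the copies of these neighbours on chromosome 1 are separated by 233 bases, as many as separate the matching parts on the mitochondrial chromosome; the bases in that gap were not examined here.

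**Figure D1:**
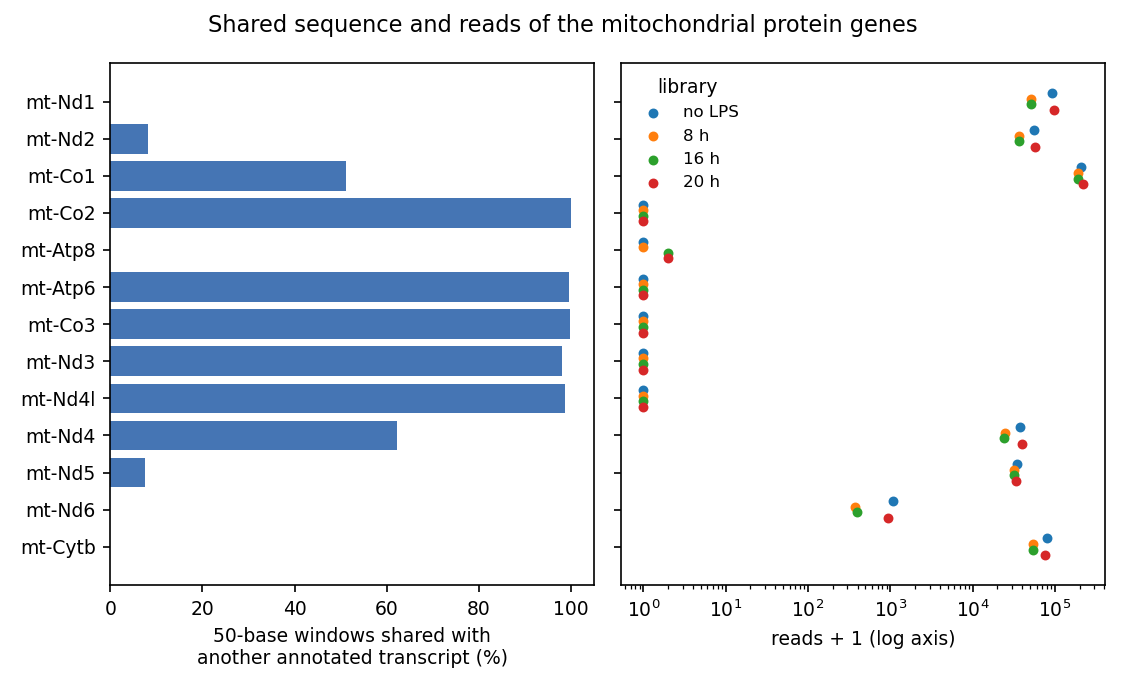
Left, share of overlapping 50-base windows of each of the 13 mitochondrial protein genes that occur in another annotated transcript, in percent; right, reads of each gene in each of the 4 libraries, as reads + 1 on a log axis, genes in order of their annotated start. The 5 genes with nearly every window shared have 0 reads in all libraries, and mt-Atp8 has at most 1.

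Among the 7 members with reads the shared part varied widely. In mt-Nd4, 827 of 1329 windows were shared, with Gm28439 identical over its 876 bases, and in mt-Co1 765 of 1496, mostly with Gm29216 on chromosome 1 and Gm13340 on chromosome 2. The share was 81 of 989 windows in mt-Nd2 and 135 of 1775 in mt-Nd5, and 0 in mt-Nd1, mt-Cytb and mt-Nd6. The shared part of mt-Co1 depended on the window, at 59.7% with 36 bases, 51.1% with 50, 39.8% with 75 and 30.8% with 100. Levels of mt-Nd4 and mt-Co1 may thus rest on a part of the gene when they are set beside those of other members.

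The 7 counted members lie on the mitochondrial chromosome as follows (mm10, GENCODE M21), each as a single exon without introns. mt-Nd1 (ENSMUSG00000064341.1) runs from 2751 to 3707, mt-Nd2 (ENSMUSG00000064345.1) from 3914 to 4951, and mt-Co1 (ENSMUSG00000064351.1) from 5328 to 6872, all on the plus strand. mt-Nd4 (ENSMUSG00000064363.1) runs from 10167 to 11544, mt-Nd5 (ENSMUSG00000064367.1) from 11742 to 13565, and mt-Cytb (ENSMUSG00000064370.1) from 14145 to 15288, again on the plus strand. mt-Nd6 (ENSMUSG00000064368.1), from 13552 to 14070, is the single protein gene of the 13 on the minus strand. Its end overlaps that of mt-Nd5 by 14 bases.

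The gene ends bear on this assay because the labels' protocol names an oligo-dT library. The last 30 bases of 5 genes are shown, with the letters of the stop codon that the DNA encodes in capitals. In mt-Co3, mt-Nd4 and mt-Cytb this is a single T, which the poly(A) tail completes, while mt-Nd5 and mt-Nd6 carry a full stop codon and face each other across their overlap.
mt-Co3, chrM:9361-9390, plus strand: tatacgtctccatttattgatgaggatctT
mt-Nd4, chrM:11515-11544, plus strand: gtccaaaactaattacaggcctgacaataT
mt-Cytb, chrM:15259-15288, plus strand: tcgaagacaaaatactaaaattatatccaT
mt-Nd5, chrM:13536-13565, plus strand: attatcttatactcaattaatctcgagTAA
mt-Nd6, chrM:13552-13581, minus strand: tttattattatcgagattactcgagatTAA

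In human cells the mRNA of ND6 is known to lack a long poly(A) tail. Whether counting used strand was not given in the sources used here. Reads of mt-Nd6 and reads from the opposite strand over the same bases cannot be told apart.

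The counted members made up 1.80% of the reads assigned to genes with no LPS (95% Clopper-Pearson interval 1.80 to 1.81), 1.36% at 8 h (1.35 to 1.36), 1.40% at 16 h (1.39 to 1.40) and 1.90% at 20 h (1.90 to 1.91). Reads that were not assigned to a gene are not part of these totals. Intervals and floors cover counting error only, and with 1 library per label none covers the spread between replicates. They may be too narrow even for counting error, because reads without molecular identifiers are not independent molecules. The libraries labelled 8 h and 16 h were thus low and lay close to each other, and those labelled no LPS and 20 h were high. These shares rest on 506284, 391870, 389012 and 524894 reads, and they leave out whatever the uncounted genes would have added.

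Several RNAs of other kinds moved with this share. Malat1, a long RNA retained in the nucleus, had 3125, 2344, 2381 and 3010 CPM (no LPS, 8 h, 16 h, 20 h), and Neat1, another such RNA, had 1792, 1502, 1513 and 1671 CPM. Both were lower in the same libraries as the mitochondrial mRNAs. The 4 genes of this RNA quality list that were in the table summed to 4919, 3847, 3895 and 4682 CPM, with Meg3 at 0 in every library and Snhg11 at 66, 26, 25 and 53 reads. The 4 leukocyte markers, with none at 0, summed to 102, 69.4, 67.0 and 99.8 CPM.

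Cd68, found in macrophages, made up most of that leukocyte sum. Ptprc, which encodes the CD45 that the sort selected against, had 42, 37, 31 and 38 reads. These counts are too few to order the libraries, with 8 h at 0.867-fold of no LPS (0.542 to 1.38). Adgre1, which encodes the macrophage antigen F4/80, had 12, 31, 77 and 24 reads, and Csf1r, a growth factor receptor of macrophages, had 9, 15, 30 and 26 reads, both lowest with no LPS. Of the mesenchymal markers, Col3a1, a fibrillar collagen, had 168, 81.8, 83.2 and 163 CPM, low in the same libraries as the mitochondrial mRNAs, while Vim had 2358, 2760, 2871 and 2543 CPM and was high in them. Prrx1, a mesenchymal transcription factor, had 210, 209, 213 and 211 CPM and differed little. The part of RNA quality or of other cell types in the mitochondrial share was not tested. In bulk RNA, fewer cells of a type and less RNA per cell cannot be told apart.

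Complex I members are membrane-arm subunits that couple electron transfer to proton pumping. mt-Nd1, which helps form the quinone-binding channel, had 90940, 51718, 51477 and 97694 reads (no LPS, 8 h, 16 h, 20 h). This is 3218, 1801, 1858 and 3528 CPM, so that the libraries labelled 8 h and 16 h stood far below the others. mt-Nd2, one of the proton-pumping subunits, had 1955, 1286, 1321 and 2091 CPM. mt-Nd4, a further pumping subunit, had 1341, 860, 877 and 1427 CPM. mt-Nd2 and mt-Nd4 had the same order of libraries as mt-Nd1, with smaller gaps.

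mt-Nd5, the pumping subunit at the far end of the membrane arm, had 1237, 1110, 1136 and 1231 CPM in the 4 libraries, again by rising hours. Its libraries lay within a narrow band. mt-Nd6, a small membrane subunit, had 1078, 375, 393 and 930 reads, or 38.1, 13.1, 14.2 and 33.6 CPM, by far the lowest level of the 7. The library labelled no LPS was the highest for mt-Nd6 and, within counting error, for mt-Nd5, and not the 20 h library as for mt-Nd1, mt-Nd2 and mt-Nd4. For mt-Nd5 the 20 h library was at 0.995-fold of no LPS, with an interval (0.980 to 1.01) that held 1.

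In complex III, mt-Cytb, which carries the haem groups that pass electrons from ubiquinol, had 2796, 1896, 1972 and 2772 CPM (no LPS, 8 h, 16 h, 20 h). In complex IV, mt-Co1, the catalytic subunit that reduces oxygen, had 7328, 6684, 6863 and 7872 CPM in the same order. For mt-Cytb the no LPS and 20 h libraries did not differ beyond counting error, and for mt-Co1 the 20 h library was the highest. mt-Co1 was the most abundant gene of the 11803 in CPM at 20 h and the second in the other 3 libraries. Its libraries, like those of mt-Nd5, differed little.

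**Figure D2:**
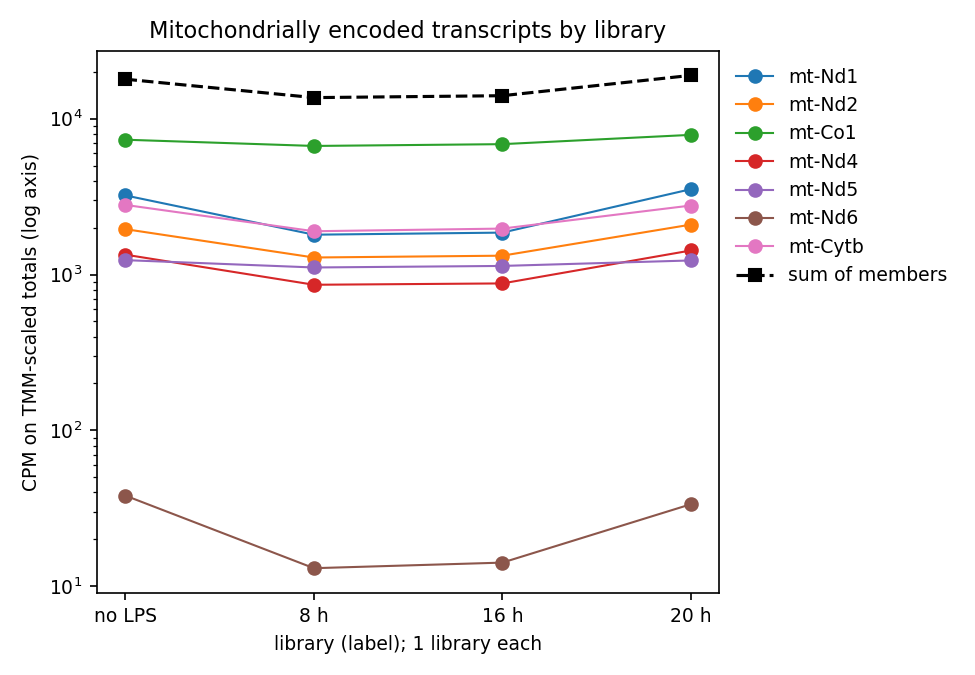
Level of each counted member, and of their sum, in CPM on TMM-scaled totals (log axis) in the 4 libraries, 1 library per label. The sum stands at 17913, 13650, 14040 and 18954 CPM from no LPS to 20 h, and mt-Nd6 lies far below the other members.

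Per kilobase of annotated length, the levels at 8 h ran in the order mt-Co1 (4326 CPM per kb), mt-Nd1 (1882), mt-Cytb (1657), mt-Nd2 (1239), mt-Nd4 (624), mt-Nd5 (609) and mt-Nd6 (25.2), with mt-Nd4 and mt-Nd5 almost level. With no LPS the order was the same, from mt-Co1 (4743 CPM per kb) over mt-Nd1 (3362), mt-Cytb (2444), mt-Nd2 (1883), mt-Nd4 (973) and mt-Nd5 (678) to mt-Nd6 (73.5). Over the windows that are not shared in place of the whole length, a choice made after the data were seen, mt-Nd4 came to 1713 CPM per kb at 8 h, below mt-Cytb (1731), and to 2672 with no LPS, above mt-Cytb (2554). mt-Co1 came to 9143 at 8 h and 10024 with no LPS on that scale and was again first; these levels rest on windows of 50 bases, a choice that moves the shared part of mt-Co1. No spread between replicates exists against which neighbours in these orders could be set.

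The 8 h label was set against no LPS to ask how these mRNAs stood in the earliest LPS library. The sum of the members was at 0.762-fold (95% counting interval 0.759 to 0.765), 13650 against 17913 CPM. Every one of the 7 counted members was lower, at a median log2 ratio of -0.60, where the 11803 measured genes had a median of 0.00 and a range from the 5th to the 95th percentile of -0.91 to 0.91. A rule of size asked for a fold of 2 or more, a counting interval clear of 1, and 1 CPM or more in whichever library was higher. It called 1 of 7 members lower and 0 higher, while among all measured genes it called 4.13% lower and 4.19% higher, or 8.31% in either direction. That gene was mt-Nd6, at 0.342-fold (0.304 to 0.386). With a fold of 1.5 in its place, 4 of 7 members (mt-Nd1, mt-Nd2, mt-Nd4 and mt-Nd6) were called lower, where 9.41% of measured genes were.

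The members did not share 1 ratio. mt-Nd1 was at 0.560-fold (0.554 to 0.566), mt-Nd4 at 0.641-fold (0.631 to 0.652), mt-Nd2 at 0.658-fold (0.649 to 0.667) and mt-Cytb at 0.678-fold (0.671 to 0.685). mt-Nd5 stood at 0.897-fold (0.884 to 0.911) and mt-Co1 at 0.912-fold (0.906 to 0.918). The intervals of mt-Nd4 and mt-Nd2 overlapped, as did those of mt-Nd5 and mt-Co1, and no other neighbours in this order overlapped.

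**Figure D3:**
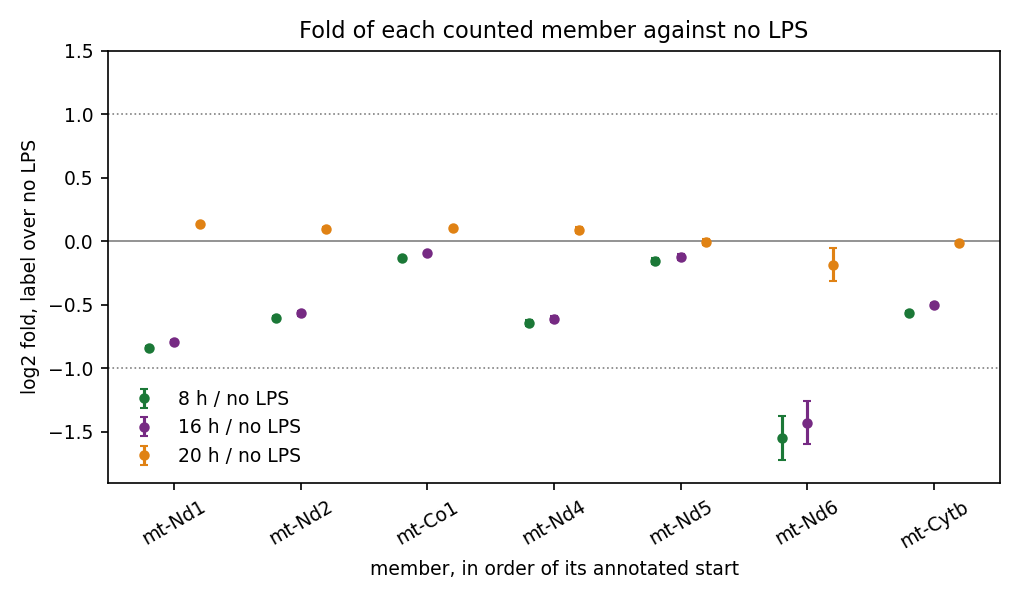
Log2 fold of each counted member at 8, 16 and 20 h over no LPS, with 95% counting intervals (many narrower than the point), members in order of their annotated start; dotted lines mark a fold of 2 in either direction. At 8 h and 16 h all members lie below 0, mt-Nd6 lowest, with mt-Co1 and mt-Nd5 near 0, and at 20 h all lie near 0.

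The makeup of the mitochondrial reads shifted with these ratios. mt-Co1 took 49.0% of the members' reads at 8 h against 40.9% with no LPS, and mt-Nd1 took 13.2% against 18.0%. There were 0.270 reads of mt-Nd1 per read of mt-Co1 at 8 h (0.267 to 0.272) against 0.439 with no LPS (0.436 to 0.443). For mt-Nd6 against its overlapping neighbour mt-Nd5 the ratio was 0.0118 (0.0106 to 0.0130) at 8 h against 0.0308 (0.0290 to 0.0328) with no LPS. The reads of mt-Nd6 therefore did not keep a fixed ratio to those of mt-Nd5.

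At 16 h against no LPS the values were nearly those of 8 h; both comparisons share the library with no LPS. The sum was at 0.784-fold (0.781 to 0.787), the median log2 ratio of the 7 members was -0.57, and again 1 was called lower and 0 higher, with 4.09% of measured genes called lower and 8.23% in either direction. With a fold of 1.5 it was 3 of 7 (mt-Nd1, mt-Nd4 and mt-Nd6), where 9.4% of measured genes were called lower. mt-Nd6 was at 0.372-fold (0.330 to 0.418), mt-Nd1 at 0.577-fold (0.571 to 0.584) and mt-Co1 at 0.937-fold (0.931 to 0.942). Set directly against 8 h, the library labelled 16 h had a sum at 1.03-fold (1.02 to 1.03), and 0 of 7 members were called, with 0.237% of measured genes called in either direction (0.161% higher and 0.0763% lower). All 7 were slightly higher at 16 h, by log2 ratios of 0.03 to 0.12, and mt-Nd6 was the one whose interval, 0.940 to 1.25, held 1.

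At 20 h against no LPS the sum was at 1.06-fold (1.05 to 1.06), 18954 against 17913 CPM. No member was called, with 0.652% of measured genes called in either direction (0.551% higher and 0.102% lower). mt-Nd1 was at 1.10-fold (1.09 to 1.11), mt-Co1 at 1.07-fold, mt-Nd2 at 1.07-fold and mt-Nd4 at 1.06-fold. mt-Nd5 and mt-Cytb were at 0.995-fold (0.980 to 1.01) and 0.991-fold (0.981 to 1.001), and mt-Nd6 was at 0.880-fold (0.806 to 0.962). Beyond counting error, 4 members were thus above no LPS and mt-Nd6 was below it, while the intervals of mt-Nd5 and mt-Cytb held 1.

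The sum differed more between 20 h and 16 h than between other successive labels, while mt-Nd5, mt-Nd6 and mt-Cytb differed more between 8 h and no LPS. The sum was at 1.35-fold (1.34 to 1.36), 18954 at 20 h against 14040 CPM at 16 h. All 7 members were higher at 20 h, with a median log2 ratio of 0.66, and 1 was called higher and 0 lower, where 4.63% of measured genes were called higher and 3.85% lower, or 8.47% in either direction. With a fold of 1.5 it was 4 of 7 (mt-Nd1, mt-Nd2, mt-Nd4 and mt-Nd6), where 10.6% were called higher. The member past a fold of 2 was mt-Nd6 at 2.37-fold (2.10 to 2.67), followed by mt-Nd1 at 1.90-fold (1.88 to 1.92), mt-Nd4 at 1.63-fold, mt-Nd2 at 1.58-fold and mt-Cytb at 1.41-fold. mt-Co1 at 1.15-fold and mt-Nd5 at 1.08-fold were again those that differed least.

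A linear trend over 0, 8, 16 and 20 h, fitted with edgeR's quasi-likelihood test over 11803 genes with 2 residual degrees of freedom, called 0 of the 7 members and 0 genes in all (0% at an adjusted p under 0.05). At an unadjusted p under 0.05 there were 43 genes (0.364%), and no member was among them. The Benjamini-Hochberg adjusted p was 0.9999 for each member. The largest fitted slope was that of mt-Nd6, at -0.32 on the log2 scale over 20 h (unadjusted p = 0.7009). DESeq2's Wald test also called 0 genes, with 25 at an unadjusted p under 0.05. Leaving out the first or the last library gave slopes of opposite sign. That of mt-Nd1 was -0.99 over 20 h without the 20 h library and 1.41 without the no LPS library, with edgeR adjusted p of 0.2394 and 0.7844. A slope over hours describes a steady course, whereas the members' levels were low at 8 and 16 h and high at both ends.

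Among the members, the ratio at 8 h tended to be higher in longer genes. mt-Nd6, of 519 bases, and mt-Nd1, of 957, had the lowest ratios, mt-Nd2, mt-Cytb and mt-Nd4, of 1038, 1144 and 1378 bases, lay between, and mt-Co1 and mt-Nd5, of 1545 and 1824, had the highest. Spearman's rho between length and log2 ratio was 0.857 over the 7 members and 0.771 without mt-Nd6, and rho with GC content was 0.714; these values describe 7 points from the same libraries. Over the 11786 measured genes that are not mitochondrial, rho was -0.01, and the median log2 ratio was 0.04 in both classes under 1000 bases and 0.06 from 1000 to 1500. GC content spanned only 34.1% to 39.9% in the members, and the 697 nuclear genes of under 40% GC had a median log2 ratio of -0.04 at 8 h. Length is confounded with position, with GC content and with the share of shared windows in so few genes, and its part in the ratios was not tested.

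**Figure D4:**
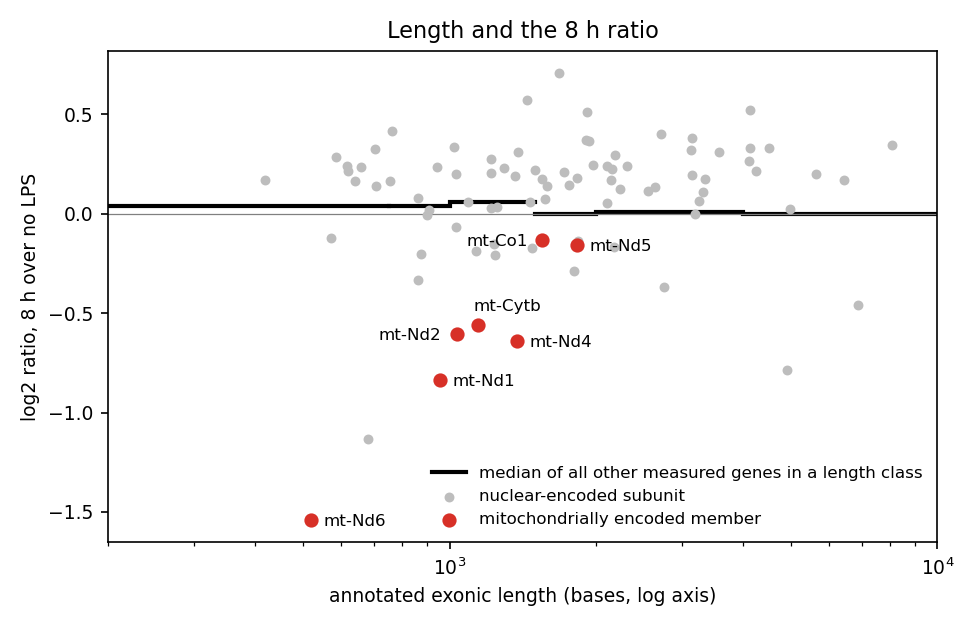
Log2 ratio at 8 h over no LPS against annotated exonic length in bases (log axis) for the 7 counted members (red), the 80 measured nuclear-encoded respiratory and ATP synthase subunits (grey) and the median of all other measured genes in each length class (black lines). The members range from -1.54 for mt-Nd6 to -0.13 for mt-Co1, while the class medians stay near 0.

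The mitochondrial mRNAs work with partners made in the nucleus, since complexes I, III and IV and ATP synthase each join subunits of both genomes, while complex II is made of nuclear subunits alone. Of 82 listed nuclear subunits 80 were measured. At 8 h against no LPS 1 of them was called lower, 0 higher and 79 not called, where 4.13% of measured genes were called lower and 4.19% higher. Their median log2 ratio was 0.18, with 63 of 80 above 0. The median was 0.17 for complex I (36 genes), 0.10 for complex II (4), 0.17 for complex III (9), 0.18 for complex IV (13) and 0.25 for ATP synthase (18), against -0.60 for the 7 mitochondrial members. The 36 nuclear subunits shorter than 1500 bases had a median of 0.16.

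Among these subunits Uqcrc1, a core subunit of complex III, was at 1.43-fold (1.38 to 1.49), Atp5a1, the alpha subunit of ATP synthase, at 1.30-fold (1.28 to 1.32), and Sdha, the flavoprotein of complex II, at 1.26-fold (1.22 to 1.30). Lower at 8 h were Atp5g1, a gene for the ring subunit of ATP synthase, at 0.572-fold (0.410 to 0.792) or 2.12 CPM at 8 h against 3.72 with no LPS, and Ndufab1, the acyl carrier protein of complex I, at 0.727-fold (0.627 to 0.841). The called gene was Cox6a2, the muscle isoform of a complex IV subunit, at 0.453-fold (0.373 to 0.547), 5.57 CPM at 8 h against 12.3 CPM with no LPS. Summed, the nuclear subunits had 7923, 9229, 9271 and 8204 CPM (no LPS, 8 h, 16 h, 20 h). They were thus highest in the libraries in which the mitochondrial mRNAs were lowest. At 20 h against no LPS their median log2 ratio was 0.00, with 0 of 80 called.

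Genes for the upkeep and transcription of mitochondrial DNA mostly had ratios below 1 at 8 h against no LPS, none past the rule of size. In the list for mitochondrial DNA maintenance 12 of 14 log2 ratios were below 0 (median -0.25), and in the transcription list 8 of 11 (median -0.22), with 0 called in either. Twnk, the helicase of mitochondrial DNA replication, was at 0.681-fold (0.647 to 0.716), Polg2, the accessory subunit of its polymerase, at 0.717-fold (0.618 to 0.831), and Mpv17, an inner membrane protein needed to maintain mitochondrial DNA, at 0.551-fold (0.481 to 0.630). In the transcription list, Mterf3, known in mice as a repressor of mitochondrial transcription, was at 0.567-fold (0.525 to 0.611), and Tefm, the elongation factor, at 0.712-fold (0.634 to 0.800).

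The best-known factors of that step were looked at after their values were seen. Polrmt, the mitochondrial RNA polymerase, had 52.1 CPM at 8 h against 66.8 with no LPS, at 0.780-fold (0.728 to 0.835). Tfam, which packs mitochondrial DNA and starts transcription, had 84.9 CPM at 8 h against 76.8 with no LPS, at 1.10-fold (1.04 to 1.17). Lrpprc, which stabilises mitochondrial mRNAs, was at 0.955-fold (0.923 to 0.987). These 3 genes went in different directions, by less than the rule of size asks.

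Later steps showed medians near 0 at 8 h. The median log2 ratio was 0.00 for 21 genes of RNA processing and decay and -0.06 for 15 translation factors. It was -0.02 for 77 genes listed under the mitochondrial ribosome by name, and 0 were called in each list. Tbrg4, a protein of mitochondrial RNA processing, was at 1.30-fold (1.23 to 1.37), and Mrpl14, of the large ribosomal subunit, at 1.35-fold (1.20 to 1.52). Taco1, a translational activator of mt-Co1, had the lowest ratio among the translation factors, at 0.643-fold (0.558 to 0.740). Among 11 regulators of mitochondrial biogenesis 0 were called (median -0.04). Ppargc1a, which encodes the coactivator PGC-1alpha, was at 0.651-fold (0.484 to 0.870) on 80 reads at 8 h against 121 with no LPS. Sirt1, a deacetylase that acts on that coactivator, was at 0.580-fold (0.544 to 0.618), and the nuclear receptor gene Esrra was at 1.39-fold (1.27 to 1.53).

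**Figure D5:**
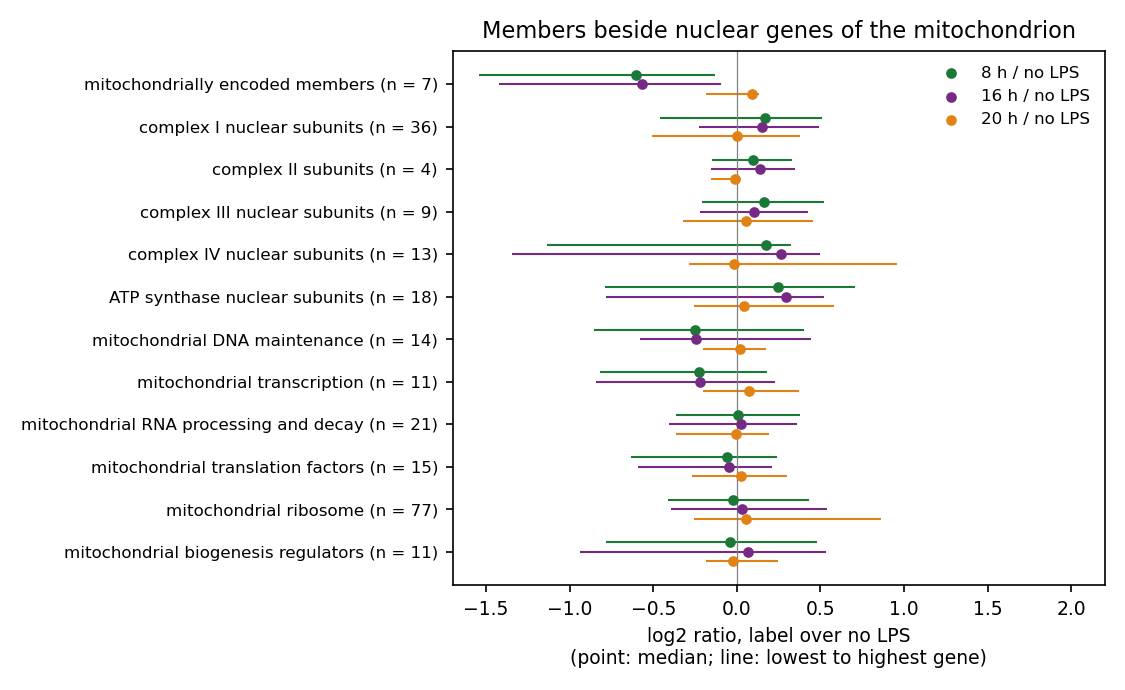
Median (point) and lowest to highest gene (line) of the log2 ratio at 8, 16 and 20 h over no LPS for the 7 counted members and for 11 lists of nuclear genes that act in the mitochondrion, with the number of measured genes of each. At 8 h the members' median is -0.60, while the list medians run from -0.25 for DNA maintenance to 0.25 for ATP synthase subunits.

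The same lists at 16 h gave a median log2 ratio of 0.18 for the 80 nuclear subunits, -0.24 for DNA maintenance and -0.22 for transcription, with Cox6a2 again the only call, at 0.390-fold (0.317 to 0.477). Of measured genes 4.09% were called lower and 4.13% higher in that comparison. At 20 h against no LPS the 3 medians were 0.00, 0.02 and 0.07, with 0 called, where 0.652% of measured genes were called in either direction. At 16 h against 8 h the one call among these lists was Mrps36, 1 of 77 genes listed under the mitochondrial ribosome by name. It had 28 reads against 14. Of measured genes 0.161% were called higher and 0.0763% lower there. At 20 h against 16 h, 2 of the 80 nuclear subunits were called, Cox6a2 at 2.57-fold (2.10 to 3.17) and Atp5g1 at 2.14-fold (1.56 to 2.96). Of the 11 transcription genes 1 was called, Mterf1b of the termination factor family, at 2.10-fold (1.22 to 3.71) on 44 reads at 20 h. The other lists, of 14, 21, 15, 77 and 11 genes, held 0 calls. Of measured genes 4.63% were called higher and 3.85% lower.

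The nuclear genes whose profile over the 4 libraries was most like the summed members were found by the root mean square difference of log2 CPM, both centred on their mean over the 4 libraries, among 8299 genes of at least 10 CPM throughout. The closest were Acin1 at 0.0115, Gramd3 at 0.0121, Cox15 at 0.0122, Ahnak2 at 0.0128 and Msi2 at 0.0130. Cox15, which makes haem A for cytochrome oxidase, had 74.2, 57.0, 57.6 and 77.5 CPM (no LPS, 8 h, 16 h, 20 h). By the same measure the members' distances from their own sum ran from 0.0661 for mt-Cytb to 0.501 for mt-Nd6. The nuclear genes were picked as the closest of 8299 and the members were not, so the 2 sets of distances cannot be compared. With 4 points per profile many genes lie close to any given shape.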

How the data were processed

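RNA was sequenced in 4 libraries, 1 per label. The authors deposited raw counts of reads per gene, made with STAR and featureCounts on mm10, per the submitters' processing notes; their versions, settings, annotation and handling of strand and of multi-mapping reads were not given in the sources used here. Columns were matched to samples by name. Of 39056 identifiers 38872 (99.5%) matched GENCODE M21. Totals were scaled with TMM in edgeR 4.0.16 (R 4.3.3). Folds carry exact conditional binomial 95% intervals, and log2 ratios a prior count of 2. A call needed a fold of 2, an interval excluding 1 and 1 CPM in the higher library. The trend used glmQLFit and glmQLFTest with Benjamini-Hochberg adjustment, and DESeq2 1.42.0 as an alternative. Both rules were tested on simulated data. The simulated trends were linear and had less dispersion than was fitted here, so they do not stand for the members' course. Shared windows were exact matches to GENCODE M21 transcripts, and copies were aligned with Biopython 1.88. Members and lists were chosen with earlier results of these data known. Named genes were all members and, per list, up to 4 measured genes with the largest absolute log2 ratio at 8 h, plus called genes where these were 6 or fewer. The nuclear genes most like the members were ranked with predicted genes and pseudogenes skipped. Polrmt, Tfam and Lrpprc fell outside this rule. Alternatives were other scalings, prior counts, level filters, fold thresholds and interval levels, and each library left out of the trend.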

Additional observations from a re-analysis of the deposited data

How the results depend on the processing

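No paired analysis was possible because each label has 1 library, and replicate numbers only name samples. Summing all mitochondrial rows or leaving out mt-Nd6 moved the 4 mitochondrial shares by less than their counting intervals. These alternatives could move the shares only slightly. The added rows hold at most 1 read in a library, and mt-Nd6 at most 0.213% of the members' reads. Of 25 recomputations of the summed fold, 9 lay beyond its counting interval, none across 1, all of them under another scaling. With library size in place of TMM it was 0.751 for 8 h and 0.774 for 16 h over no LPS, and 1.36 for 20 h over 16 h. With upper-quartile factors it was 0.777 for 16 h and 1.04 (1.0385) for 20 h over no LPS, 1.02 for 16 h over 8 h and 1.34 (1.3365) for 20 h over 16 h. With DESeq2 size factors it was 1.04 (1.0425) for 20 h over no LPS and 1.34 (1.3354) for 20 h over 16 h. The members' log2 ratios kept their sign in all 175 recomputations and moved by at most 0.0269. Of these recomputations, 23 lay beyond the member's counting interval, all of them under another scaling. A fold threshold of 1.5 in place of 2 called 4 members lower at 8 h and 3 at 16 h against no LPS, where 9.41% and 9.4% of measured genes were. It called 4 higher at 20 h against 16 h, where 10.6% of measured genes were. A threshold of 4 called 0, 0 and 0 members. Other filters, interval levels and scalings left the counts of called members as they were. The 72 recomputed list counts, each of 0 or 1 under another scaling, did not change. The trend called 0 genes under all 9 alternatives, with a range of 0 to 0 when 1 library was left out; an unadjusted p of 0.05 was passed by 540 genes without no LPS, 18 without 8 h, 24 without 16 h and 2110 without 20 h, against 43 with all 4. Counting error is small beside most folds here, whereas the spread between replicates was not measured. With windows of 36, 75 or 100 bases, chosen after the data were seen, at least 97.6% of the windows of mt-Co2, mt-Atp6, mt-Co3, mt-Nd3 and mt-Nd4l were shared, while that share moved from 51.1% to 59.7%, 39.8% and 30.8% in mt-Co1 and from 7.61% to 13.97%, 1.66% and 0% in mt-Nd5.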
